A study of Mus musculus with 24 samples.

Results

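The inducible nitric oxide synthase and the genes that supply it with arginine and cofactor were examined in mouse embryonic fibroblasts (MEFs) with and without the kinase LKB1. The 5 genes were listed by name, from among 55471 gene identifiers in the count tables: Slc7a2, Ass1, Asl, Nos2 and Gch1. They were chosen by role, with the measured responses of WT and LKB1 KO cells to interleukin-1β (IL-1β) in view and so selected on them, and those responses are given below as values without a test. All 5 had enough reads to be tested.

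The 24 RNA-seq libraries came from 3T3 MEFs, an immortalised fibroblast line, of 4 genotypes, each untreated or stimulated with IL-1β at 0.1 ng/mL for 6 hours, with 3 libraries in each of the 8 groups. WT cells were intact, and LKB1 KO (Lkb1-/-) cells lacked Stk11, the gene for LKB1. DKO_A1 and DKO_A2 were single-cell clones of Lkb1-/- cells in which CRISPR/Cas9 had also targeted Crtc2, a coactivator of the transcription factor CREB. Each DKO line is therefore 1 clone, and clone and genotype cannot be told apart within either line. WT and Lkb1-/- cells are likewise 1 line each, and line and genotype cannot be told apart. No label ties the 3 libraries of a group to separate cultures, so p-values measure the spread between libraries, which may be technical.

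Library depth was between 38842901 and 48594394 reads on genes. Stk11 was 2.31 ± 0.0701 (SE) lower on the log2 scale in untreated Lkb1-/- than in WT cells (FDR 1.06e-16). Crtc2 mRNA remained present in both clones, at a log2 difference from untreated Lkb1-/- cells of -0.92 in DKO_A1 (FDR 2.21e-09) and -0.70 in DKO_A2 (FDR 9.91e-08). The paper checked the knockout at the protein level, by immunoblot for Crtc2, which these mRNA levels do not measure. The 8 fibroblast markers summed to 5351–9915 CPM (read counts scaled to the effective size of the library) per library, and 1 of them, Thy1, was under 1 CPM in all 8 groups. Of the 7 tested, 3 were higher and 3 lower in untreated Lkb1-/- than in WT cells, with group means of 4.58 (WT) and 342 CPM (Lkb1-/-) for Pdgfra and 780 and 63.0 CPM for Col1a2. Of 12 macrophage and leukocyte markers, 8–10 were under 1 CPM in each group, and the defining markers Ptprc, Adgre1, Itgam, Fcgr1 and Tyrobp reached at most 0.0302 CPM as a group mean. The summed level of that list was higher after IL-1β, for example 12.0–14.5 CPM in untreated and 20.8–27.1 CPM in stimulated WT libraries, with Cd14 and Mrc1 called higher in WT and Lkb1-/- cells. Between genotypes, Csf1r, Mrc1 and Cx3cr1 of that list were called higher in untreated Lkb1-/- than in WT cells (5.07, 2.61 and 1.78 on the log2 scale), where the list summed to 13.5–16.3 CPM. Under IL-1β, Csf1r (3.78), Lyz2 (3.81) and Mrc1 (1.10) were higher and Cd14 (-0.40) was lower in Lkb1-/- than in WT cells, and Mrc1 was lower in the clones than in Lkb1-/- cells (-1.25 in DKO_A1 and -2.61 in DKO_A2). Cd68 was higher in both stimulated clones (0.59 and 0.77), and untreated Cd68 (0.57 and 0.67) and Lyz2 (6.98 and 4.54) were higher in both. Cd14 was lower in both stimulated clones (-0.40 and -0.68) and in untreated DKO_A2 (-0.51). The 8 endothelial and epithelial markers summed to 0.599–1.10 CPM in untreated WT and 2.83–3.25 CPM in untreated Lkb1-/- libraries, and the 2 that were tested were called higher in Lkb1-/- cells. The part of these markers in the results below was not tested. In bulk RNA, a change in the share of cells and a change in RNA per cell cannot be told apart.

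Inducible nitric oxide synthase, encoded by Nos2, converts arginine to nitric oxide and citrulline, and it is made by macrophages, fibroblasts and other cells after inflammatory cytokines. Arginine enters the cell through cationic amino acid transporters such as CAT2, encoded by Slc7a2, and is rebuilt from citrulline by argininosuccinate synthase (Ass1) and argininosuccinate lyase (Asl). The enzyme needs tetrahydrobiopterin, whose synthesis starts with GTP cyclohydrolase 1 (Gch1).

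In GRCm38 coordinates (GENCODE M21) the transporter gene Slc7a2 lies at chr8:40862396-40922308 on the plus strand, and Nos2 lies at chr11:78920787-78960254 on the plus strand. Ass1 is at chr2:31470207-31520672 (plus), Asl at chr5:130011258-130029247 (minus) and Gch1 at chr14:47153895-47189413 (minus). Exons of Slc7a2 overlap those of the lincRNA Gm26584 on the opposite strand by 635 bp, and values below come from strand-specific counts.

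Promoter sequence is shown for Gch1 and Ass1, the 2 of the 5 genes matched by RefSeq promoter entries (GRCm38.p6). The cAMP response element was among the patterns searched, since CRTC2 acts with CREB there. Bases are upstream of the annotated gene start, 5′ to 3′ on the gene's strand, and capitals mark TGACG (the core of the cAMP response element, searched on both strands) and a degenerate NF-κB pattern (3 G, any 5 bases and 2 C, searched on both strands, with overlapping matches merged).
Gch1, chr14:47189414-47189663, minus strand: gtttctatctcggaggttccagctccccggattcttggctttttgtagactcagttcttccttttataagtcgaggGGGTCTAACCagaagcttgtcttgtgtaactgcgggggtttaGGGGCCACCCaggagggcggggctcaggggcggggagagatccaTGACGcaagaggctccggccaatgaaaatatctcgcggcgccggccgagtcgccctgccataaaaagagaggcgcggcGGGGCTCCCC
Ass1, chr2:31470020-31470206, plus strand: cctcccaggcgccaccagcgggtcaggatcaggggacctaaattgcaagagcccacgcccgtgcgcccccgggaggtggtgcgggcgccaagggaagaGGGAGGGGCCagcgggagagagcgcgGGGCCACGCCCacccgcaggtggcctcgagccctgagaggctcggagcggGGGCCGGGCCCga
In the 250 bases of Gch1, TGACG occurred 1 time, 88 to 84 bases before the start, and in the 187 bases of Ass1 it had 0 matches. Windows of these lengths held TGACG in 17.8% and 11.4% of 32851 promoters. The NF-κB pattern was found at 3 places in each window, and 45.8% and 34.6% of promoters held it. The full element TGACGTCA, which contains TGACG, and the E-box CACGTG had no match in either window, and 1.55% and 6.02% of promoters held them in 250 bases. These matches describe letters and do not show binding.

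Without any stimulus, Slc7a2 and Ass1 were far higher in Lkb1-/- than in WT cells, and Asl was lower by a smaller amount. Of the 5 genes tested, 3 were called at a false discovery rate (FDR) under 0.05 between untreated Lkb1-/- and WT cells, against 55.9% of all 17522 genes tested. Slc7a2 and Ass1 were higher (30.1% of all genes) and Asl was lower (25.8%). Under IL-1β all 5 genes were called (57.4% of all genes), 4 higher (30.2%) and Asl lower (27.1%) in Lkb1-/- cells. The stimulated WT and Lkb1-/- libraries entered the responses on which the genes were selected, so these counts are not independent of the choice. With such a background share, the number of genes called says little by itself, and the size of each difference is given below. DKO_A1 differed from Lkb1-/- cells in 2 of 5 genes untreated (35.3% of all genes) and in 3 of 5 under IL-1β (36.7%), and DKO_A2 differed from them in 1 of 5 (32.3%) and 2 of 5 (32.8%). Against stimulated WT cells, 4 of 5 genes were called in each stimulated clone (56.9% of all genes for DKO_A1 and 60.8% for DKO_A2), of which 3 were higher (30.1% and 32% of all genes) and Asl was lower (26.9% and 28.8%). The clones differed from each other in 1 of 5 genes untreated (32.5%) and 2 of 5 under IL-1β (30.7%). Without a block, IL-1β moved few genes of all those tested, and 3 of 5 were called higher in DKO_A1 (1.99% of all genes called, 1.2% higher) and 3 in DKO_A2 (5.68% called, 2.81% higher). Both clones derive from the Lkb1-/- line, whose response was in view when the genes were selected. These counts, and the FDR values of the clone responses below, are therefore not independent of the choice. With the block within genotype described below, 16.3% and 26% of all genes were called. With the replicate block over all libraries, the counts between genotypes were 4 of 5 for untreated Lkb1-/- against WT (64.3% of all genes), 3 and 5 for DKO_A1 against Lkb1-/- untreated and stimulated (48.1% and 49.1%), 2 for untreated DKO_A2 against Lkb1-/- (45.9%), 5 for stimulated DKO_A2 against WT (68.5%), and 3 between the clones at either treatment (46.3% and 44.4%).

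Nos2, the nitric oxide synthase itself, was silent or nearly so without IL-1β and was induced in every genotype. Untreated WT libraries had 0 reads each, and their stimulated counterparts had 316, 796 and 1029 reads, or 7.80, 18.6 and 26.6 CPM, which is at least 247-fold higher when each untreated library is set at 3 reads. Untreated Lkb1-/- libraries had 1, 3 and 3 reads, and stimulated ones had 60.0, 122 and 126 CPM, a ratio of summed counts of 1910 (exact 95% interval 927–4752). Every stimulated library was far above every untreated library. In DKO_A1, counts of 1, 1 and 3 reads rose to 53.0, 83.0 and 102 CPM (ratio 2001, interval 857–6165, FDR 3.04e-08), and the fitted log2 difference of 10.87 became 11.52 without untreated replicate 3. In DKO_A2, counts of 7, 9 and 13 reads rose to 60.8, 113 and 157 CPM (ratio 519, interval 361–775, FDR 1.14e-08). Intervals here cover counting error only.

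**Figure D1:**
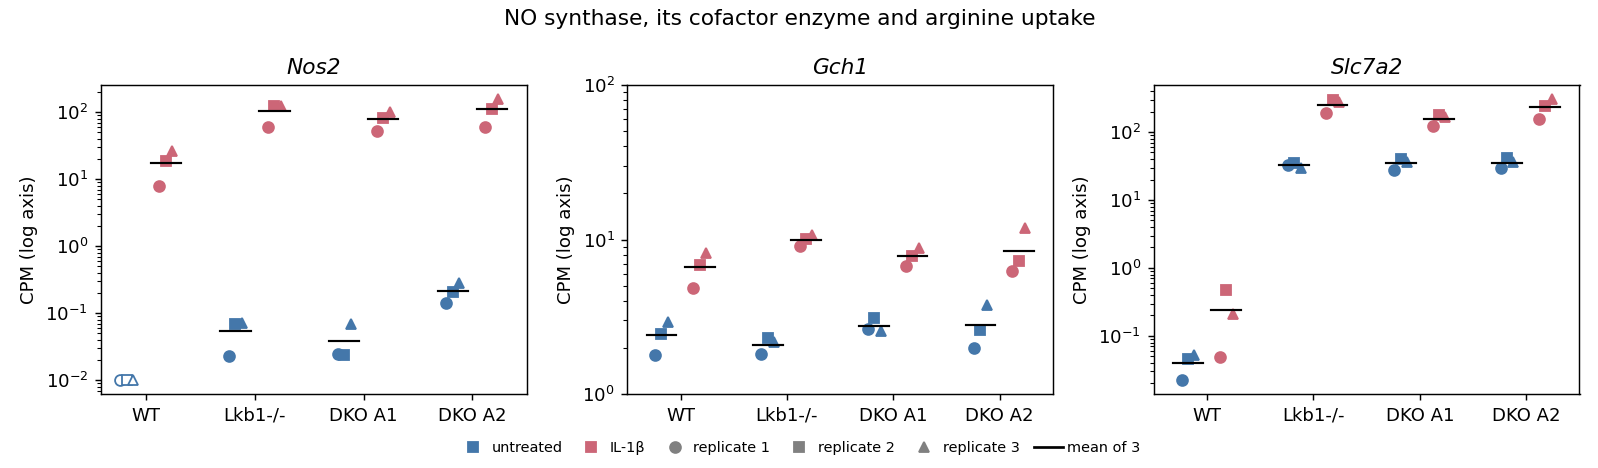
Levels of Nos2, Gch1 and Slc7a2 in CPM (log axes) in each of the 24 libraries, by genotype and treatment, with the replicate number as the symbol and a line at the mean of 3. Open symbols mark Nos2 in untreated WT libraries at 0 reads, drawn at the foot of the axis, and replicate 1 is the lowest of the stimulated libraries in all 4 genotypes for all 3 genes.

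Under IL-1β, Nos2 was higher without LKB1 than with it: 102 ± 36.8 CPM (SD, n = 3) in Lkb1-/- cells against 17.7 ± 9.44 in WT cells, a log2 difference of 2.54 ± 0.38 (SE, FDR 1.17e-05). The stimulated groups did not overlap. Untreated libraries of both lines held at most 3 reads, so this difference is close to a difference of the responses. The genes were selected with those responses in view, and the FDR is not independent of the choice. Nos2 was also above WT in the double-knockout clones, with log2 differences from stimulated WT cells of 2.17 in DKO_A1 (FDR 6.54e-05) and 2.64 in DKO_A2 (FDR 6.49e-06).

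Replicate numbers bear on the Nos2 comparison of the clones. Replicate 1 was the lowest stimulated library in 4 of 4 genotypes, and libraries with the same number deviated together over all genes, so the number was also entered in the fit as a block. Replicate 1 also had the largest share of reads given to no gene in every group. In stimulated Lkb1-/- cells it was 34.4% against 28.7% and 28.3%. The part of this share in the Nos2 levels was not tested. Stimulated DKO_A1 had 0.884, 0.681 and 0.813 times the Nos2 CPM of the Lkb1-/- library of the same number. The log2 difference was -0.37 ± 0.36 (FDR 0.467) without the block and -0.35 (FDR 0.00366) with it. The same comparison in DKO_A2 gave ratios of 1.01, 0.928 and 1.25, on both sides of 1. Between stimulated clones Nos2 was 1.15, 1.36 and 1.54 times as high in DKO_A2 as in DKO_A1 (FDR 0.351 without and 0.000756 with the block). Untreated DKO_A2 also had the most background Nos2 reads, 29 in 3 libraries against 7 in Lkb1-/- cells (ratio 3.87, exact interval 1.66–10.5, FDR 0.395 without and 0.0225 with the block) and 5 in DKO_A1 (ratio 5.29, interval 2.03–17.5, FDR 0.324 and 0.0100), where the fitted log2 difference of 2.32 became 2.97 without untreated DKO_A1 replicate 3. The 7 reads in untreated Lkb1-/- against 0 in WT libraries gave an FDR of 0.389 without and 0.0361 with the block, and no fold is given because both groups were at or under 3 reads per library.

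Gch1, which makes the rate-limiting step of tetrahydrobiopterin synthesis, was expressed without stimulus and rose with IL-1β in every genotype. Untreated levels were 1.79, 2.46 and 2.95 CPM in WT and 1.81, 2.30 and 2.17 CPM in Lkb1-/- libraries. Stimulated levels were 4.86, 6.84 and 8.15 CPM in WT and 9.12, 10.03 and 10.7 CPM in Lkb1-/- libraries. The untreated groups overlapped and the stimulated ones did not. The response was a log2 difference of 1.47 ± 0.25 in WT and 2.25 ± 0.25 in Lkb1-/- cells. By replicate number, Gch1 rose 2.72-, 2.78- and 2.76-fold in WT and 5.03-, 4.37- and 4.94-fold in Lkb1-/- cells. The clones rose 2.56-, 2.51- and 3.45-fold (DKO_A1) and 3.12-, 2.78- and 3.15-fold (DKO_A2), all below the Lkb1-/- range, with a called rise of 1.49 ± 0.25 in DKO_A1 (FDR 0.00117) and 1.60 ± 0.25 in DKO_A2 (FDR 0.000240).

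Stimulated Gch1 was 0.59 ± 0.24 higher on the log2 scale in Lkb1-/- than in WT cells (FDR 0.0387). It was higher in all 3 pairs by replicate number (1.87, 1.47 and 1.31 times), and with the replicate block the difference was 0.61 (FDR 0.000544). Without the block the call was lost with unstranded counts (FDR 0.0724) and without any one of stimulated WT replicates 1 and 2 and stimulated Lkb1-/- replicates 2 and 3 (log2 differences of 0.41, 0.62, 0.58 and 0.51). Since the untreated groups overlapped, this stimulated difference is close to the difference of responses. Its FDR, with or without the block, is not independent of the choice of genes. The clones had 7.82 ± 1.05 CPM (DKO_A1) and 8.45 ± 2.99 CPM (DKO_A2) under IL-1β, between 6.62 ± 1.65 in WT and 9.95 ± 0.795 in Lkb1-/- cells, and neighbours in this order overlapped. For DKO_A1 against Lkb1-/- cells, the replicate block gave a call in opposite directions by treatment, 0.42 higher untreated (FDR 0.0472, 0.244 without the block) and -0.36 under IL-1β (FDR 0.0382, 0.277 without). Stimulated DKO_A2 was 0.34 above stimulated WT with the block (FDR 0.0382, 0.211 without).

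Slc7a2, the cationic amino acid transporter, had the largest difference between WT and Lkb1-/- cells of the 5 genes. WT libraries held 1, 2 and 2 reads untreated and 2, 20 and 8 reads with IL-1β. Untreated Lkb1-/- libraries held 1440, 1523 and 1260 reads (32.6, 35.3 and 29.998 CPM), and stimulated ones 7800, 14223 and 11375 reads (187, 295 and 273 CPM). The gene was thus close to undetected in WT cells and abundant in cells without LKB1 at either treatment. Lkb1-/- cells exceeded WT cells 827-fold untreated (exact interval 354–2548, FDR 6.94e-13) and 1033-fold under IL-1β (interval 723–1531, FDR 5.95e-15). Of the 30 stimulated WT reads 20 were in replicate 2, the ratios by replicate number were 3790, 633 and 1319, and the fitted log2 difference went from 9.99 to 10.93 without that library. The clones kept high levels, with 34.8 ± 6.25 CPM in DKO_A1 and 35.3 ± 5.90 CPM in DKO_A2 untreated, both overlapping the Lkb1-/- libraries.

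With IL-1β, Slc7a2 rose by a log2 difference of 2.95 ± 0.24 in Lkb1-/- cells, and the WT count rose from 5 to 30 reads in 3 libraries (ratio 6.22, exact interval 2.39–20.5), of which replicate 2 gave 20. DKO_A1 rose by 2.14 ± 0.23 (FDR 6.33e-06) to 121, 175 and 165 CPM. DKO_A2 rose by 2.73 ± 0.24 (FDR 1.31e-07) to 153, 243 and 306 CPM. The DKO_A1 libraries were below the Lkb1-/- library of the same number in all 3 pairs, at 0.648, 0.592 and 0.606 times its level. The log2 difference was -0.71 ± 0.22 (FDR 0.0151), and it missed the threshold without stimulated DKO_A1 replicate 1 (-0.57, FDR 0.0819) or Lkb1-/- replicate 2 (-0.58, FDR 0.0798). DKO_A2 was 0.60 ± 0.22 above DKO_A1 under IL-1β (FDR 0.0430), 1.26, 1.39 and 1.85 times by replicate number. The call held with the replicate block (0.58, FDR 0.000215), and without it was lost with unstranded counts (FDR 0.0551), in a fit of only these groups (FDR 0.0901), and without any one of DKO_A1 replicates 1, 2 and 3 and DKO_A2 replicates 2 and 3 (0.36 to 0.71). Against stimulated WT cells the clones were 627-fold (DKO_A1, interval 439–930, FDR 1.81e-14) and 942-fold (DKO_A2, interval 659–1396, FDR 6.59e-15) higher, and the fitted log2 differences of 9.27 and 9.88 became 10.22 and 10.82 without stimulated WT replicate 2.

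Ass1, which joins citrulline and aspartate, had 3 levels of expression by genotype, and differed little between treatments beside that. WT libraries had 5.11, 6.10 and 5.87 CPM untreated and 4.49, 4.46 and 5.97 CPM stimulated. Lkb1-/- libraries had 57.8, 64.9 and 57.4 CPM untreated and 74.9, 85.3 and 85.3 CPM stimulated. DKO_A1 stood between them, at 20.4, 18.9 and 16.2 CPM untreated and 19.4, 18.3 and 17.4 CPM stimulated. DKO_A2 was near Lkb1-/- cells, at 53.9, 65.4 and 68.4 CPM untreated and 50.7, 69.8 and 74.1 CPM stimulated. Lkb1-/- exceeded WT by 3.40 ± 0.15 untreated (FDR 3.04e-14) and 4.04 ± 0.15 under IL-1β (FDR 2.97e-15) on the log2 scale. DKO_A1 was lower than Lkb1-/- cells by log2 differences of -1.70 ± 0.13 (FDR 6.06e-09) and -2.15 ± 0.13 (FDR 2.11e-10), and remained above stimulated WT cells by 1.89 (FDR 3.66e-10). DKO_A2 exceeded stimulated WT cells by 3.71 (FDR 9.75e-15) and DKO_A1 by 1.76 untreated (FDR 4.47e-09) and 1.82 stimulated (FDR 2.75e-09).

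The untreated levels of Ass1 in DKO_A2 and Lkb1-/- cells overlapped. Under IL-1β DKO_A2 was -0.34 ± 0.13 from Lkb1-/- cells (FDR 0.0483), and it was below the Lkb1-/- library of the same number in all 3 pairs (0.677, 0.819 and 0.869 times its level). The call held with the replicate block (FDR 0.00843) and ended with unstranded counts (FDR 0.0926), in a fit of only these groups (FDR 0.0580) and without any one of DKO_A2 replicates 1 and 2 and Lkb1-/- replicates 2 and 3 (-0.37 to -0.17). The IL-1β response of Ass1 was 0.45 ± 0.13 in Lkb1-/- cells, where it rose 1.29-, 1.31- and 1.48-fold by replicate number, and -0.20 ± 0.15 in WT cells.

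Asl, the next enzyme of the citrulline cycle, ran the other way and over a narrow range. Its level was 29.2 ± 2.25 CPM in untreated and 31.1 ± 1.08 CPM in stimulated WT cells. In Lkb1-/- cells it was 17.0 ± 1.71 and 16.3 ± 0.277 CPM, and no Lkb1-/- library reached a WT library. The log2 differences were -0.78 ± 0.08 untreated (FDR 1.73e-08) and -0.93 ± 0.08 with IL-1β (FDR 9.94e-10). Both clones were between the parent line and WT cells, with 23.1 ± 1.40 CPM (DKO_A1) and 26.3 ± 1.21 CPM (DKO_A2) untreated. They were higher than Lkb1-/- cells by 0.44 (DKO_A1, FDR 0.000124) and 0.63 (DKO_A2, FDR 2.32e-06) untreated, and by 0.46 (FDR 6.93e-05) and 0.57 (FDR 7.46e-06) with IL-1β. Both were also below stimulated WT cells, at -0.47 (FDR 1.56e-05) and -0.36 (FDR 0.000268). Untreated DKO_A2 was 0.19 above DKO_A1, with an FDR of 0.0566 without and 0.0156 with the replicate block. The response to IL-1β was 0.09 ± 0.07 in WT and -0.06 ± 0.08 in Lkb1-/- cells, and it was not called in either clone.

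**Figure D2:**
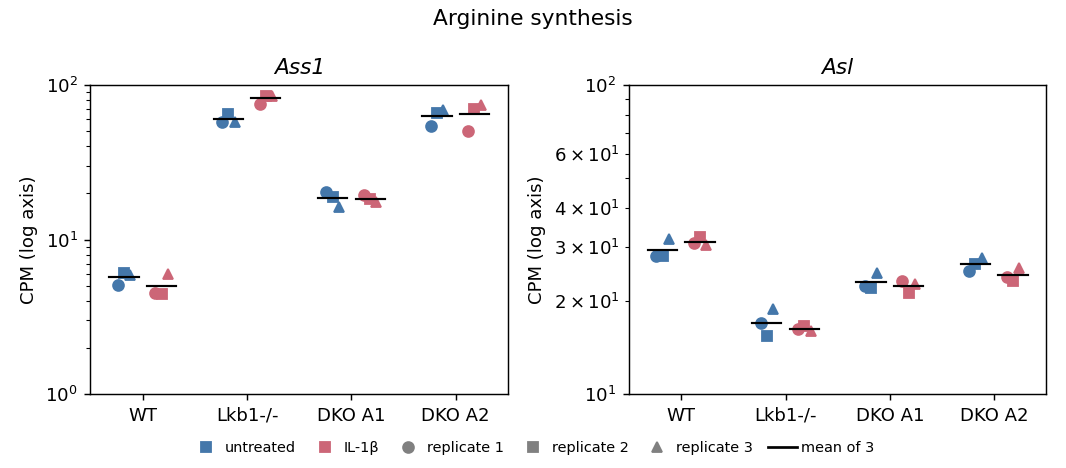
Levels of Ass1 and Asl in CPM (log axes) in each of the 24 libraries, by genotype and treatment, with the replicate number as the symbol and a line at the mean of 3. Ass1 in DKO_A1 lies between 16.2 and 20.4 CPM, between the WT and Lkb1-/- libraries, and Asl has its lowest libraries in Lkb1-/- cells.

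**Figure D3:**
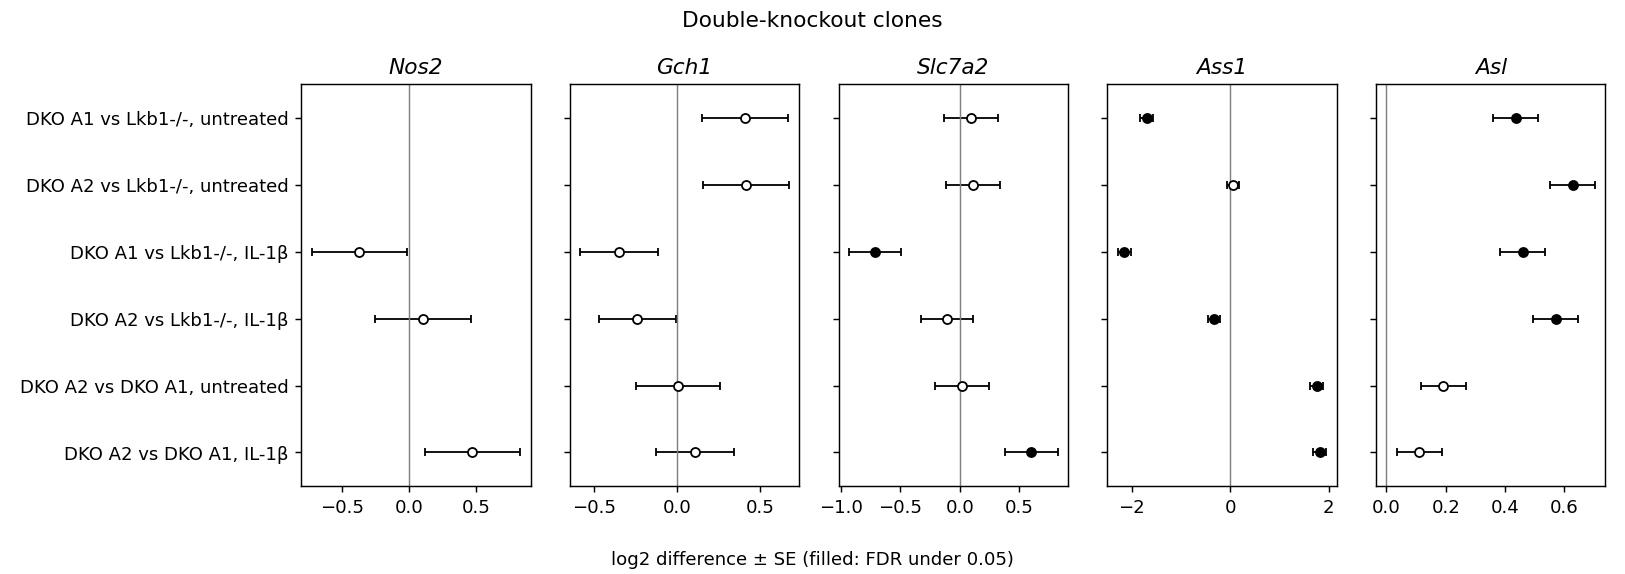
Log2 differences (± SE, without the replicate block) of the 5 genes between the clones and Lkb1-/- cells and between the 2 clones, with filled points at FDR under 0.05. Nos2 is left out where untreated counts were at or near 3 reads, and Ass1 in DKO_A1 has the largest differences from Lkb1-/- cells, -1.70 and -2.15.

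Whether the IL-1β response differed between the lines was examined as the difference of 2 responses. Without a block, 0 of 5 genes were called for DKO_A1 minus Lkb1-/- and DKO_A2 minus Lkb1-/- in the edgeR test, against 0.0285% and 0% of all genes. At an unadjusted p under 0.05 these contrasts had 433 and 388 of all genes. DESeq2 called 11 and 10. For Lkb1-/- minus WT, 0.245% of all genes were called, and the 5 genes have no test there. With a block for the number inside each genotype, which compares each stimulated library with the untreated library of its number, more genes were called (5.72%, 1.52% and 1.04% of all genes). The genes were selected with the WT and Lkb1-/- responses in view, so none of these differences is independent of the choice. Lkb1-/- minus WT is built from those responses alone and is given as values without a test, 0.79 ± 0.16 for Gch1 and 0.65 ± 0.11 for Ass1. The clone differences use the Lkb1-/- response on 1 side, and their FDR is to be read with that limit. A choice of genes that rose strongly in Lkb1-/- cells favours clone differences below 0. In DKO_A1 the response was below that of Lkb1-/- cells for Gch1 (-0.76 ± 0.15, FDR 0.00802), Slc7a2 (-0.78 ± 0.14, FDR 0.00305) and Ass1 (-0.45 ± 0.08, FDR 0.00421). In DKO_A2 it was below for Gch1 (-0.66 ± 0.15, FDR 0.0319) and Ass1 (-0.40 ± 0.07, FDR 0.00554). None of these was called with the block over all libraries (FDR 0.0644 for Slc7a2, 0.239 for Gch1 and 0.491 for Ass1 in DKO_A1, and 0.512 and 0.675 for Gch1 and Ass1 in DKO_A2). All 3 differences rest on the same Lkb1-/- libraries. For Nos2, whose response rests on few untreated reads, no response difference was called in either fit.

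**Figure D4:**
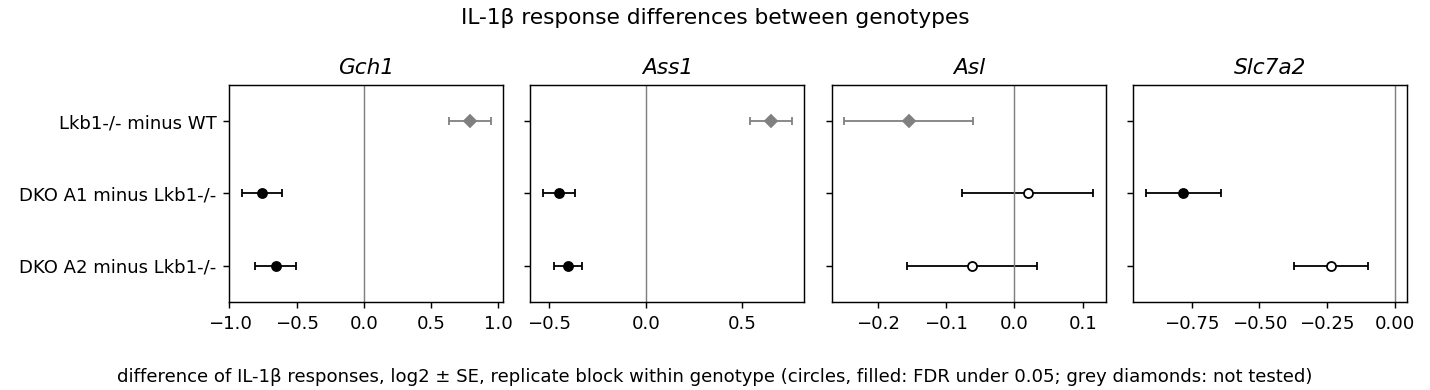
Differences of IL-1β responses (log2 ± SE) between genotypes for 4 genes, with a block for the number inside each genotype, filled circles at FDR under 0.05 and grey diamonds for Lkb1-/- minus WT, which was not tested. Gch1 and Ass1 lie above 0 for Lkb1-/- minus WT and below 0 for both clones minus Lkb1-/-, and Slc7a2 is not shown for the comparison with WT, where untreated libraries held at most 2 reads.

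Levels can be compared between genes only per length of exon, taken here as all annotated exons of a gene merged. In stimulated Lkb1-/- cells, mean CPM per kb was 33.9 ± 2.496 for Ass1, 27.6 ± 6.26 for Slc7a2 and 23.2 ± 8.35 for Nos2, all above 3.38 ± 0.0573 for Asl and 1.59 ± 0.127 for Gch1. In stimulated WT cells the order began with Asl (6.45 ± 0.223 CPM per kb), followed by Nos2 (4.004 ± 2.14), Ass1 (2.06 ± 0.358) and Gch1 (1.06 ± 0.264), with Slc7a2 at 0.0264. This order is by mean, and the SD of Nos2 was larger than its distance from Ass1.

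Across the 24 libraries, log2 CPM of Nos2 and Gch1 had a Pearson r of 0.958, and that of Ass1 and Slc7a2 an r of 0.847. These are descriptions over libraries that share genotype, treatment and replicate number. Among genes with a mean log2 CPM above 1, the nearest to Nos2 were Cxcl1 (r = 0.972), a neutrophil chemokine, Stxbp3 (0.958) and Nfkbiz (0.958), a nuclear regulator of NF-κB targets. Gch1 was nearest to Nos2 itself, Psmd10 (0.951) and Cxcl1 (0.931). Slc7a2 was nearest to Fgf7 (0.988), Slc4a4 (0.982) and Ch25h (0.981). Ass1 was nearest to Rabif, Zfp862-ps and Rgl3 (0.981, 0.981 and 0.980), and Asl to Tlcd1, Stx4a and Rai1 (0.966, 0.951 and 0.947).

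The wider pathway was followed through 60 other genes in 6 lists, of which 49 were tested: regulators of nitric oxide synthases, biopterin enzymes, arginine transporters, urea cycle genes, the ornithine, polyamine, proline and creatine branches, and the nitric oxide receptor with cGMP signalling. Between untreated Lkb1-/- and WT cells, 15 were higher and 16 lower, beside 30.1% and 25.8% of all genes, with a median log2 difference of 0.03 beside 0.04 for all genes. Under IL-1β the counts were 16 and 17, beside 30.2% and 27.1%. The other large arginine transporter gene, Slc7a1, named after its values were seen, had 332 ± 21.7 CPM in untreated WT and 131 ± 7.82 CPM in untreated Lkb1-/- cells, the opposite order to Slc7a2. Among genes with a mean log2 CPM above 1, the largest rises were in Gatm, which makes the creatine precursor guanidinoacetate from arginine (0 reads in WT libraries, at least 166-fold higher untreated and 139-fold under IL-1β), the cGMP-dependent kinase Prkg1 (5.88 ± 0.42, FDR 1.37e-10) and the spermine oxidase Smox (3.42 ± 0.27, FDR 7.57e-10). The largest falls were in the proline dehydrogenase Prodh (-3.83 ± 0.29, FDR 3.88e-10), Ddah1, which degrades the endogenous inhibitor of nitric oxide synthases asymmetric dimethylarginine (-2.42 ± 0.13, FDR 8.21e-13), and the cGMP phosphodiesterase Pde5a (-2.32 ± 0.44, FDR 0.000126).

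In the clones, Ddah1 was higher than in Lkb1-/- cells by 2.15 ± 0.13 in untreated DKO_A1 (FDR 8.95e-11), and DKO_A2 was -1.60 ± 0.12 from DKO_A1 (FDR 5.53e-09). Of the 49 tested genes, 11 were higher and 8 lower in untreated DKO_A1 than in Lkb1-/- cells (18.9% and 16.4% of all genes), and 14 and 8 in DKO_A2 (17.1% and 15.1%). Under IL-1β the counts were 13 and 8 in DKO_A1 (19.4% and 17.3%) and 13 and 11 in DKO_A2 (17.1% and 15.8%). The soluble guanylate cyclase subunit Gucy1a2 was among the genes most raised in both untreated clones. It was higher by 1.12 ± 0.19 in DKO_A1 (FDR 7.76e-05) and 0.84 ± 0.19 in DKO_A2 (FDR 0.00160). Its group means there were low, at 4.35 and 3.58 CPM. The subunit genes Gucy1a1 and Gucy1b1 were almost undetected. Their highest group means were 0.0782 CPM (untreated WT) and 0.0155 CPM (untreated Lkb1-/-). Whether the nitric oxide receptor itself differed was not tested. In DKO_A1, Prodh was -1.38 ± 0.37 and Smox -0.90 ± 0.24 from untreated Lkb1-/- cells (FDR 0.00574 and 0.00584). In DKO_A2, the creatine enzyme Gamt (1.05 ± 0.21, FDR 0.000689) and Ddah2, related to Ddah1 (0.90 ± 0.20, FDR 0.00163), were higher. The polyamine enzyme ornithine decarboxylase, Odc1, was lower in stimulated DKO_A2 by -1.27 ± 0.22 (FDR 0.000114).

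IL-1β moved few of the other pathway genes: 2 were higher and 2 lower in WT, 2 and 1 in Lkb1-/-, 1 and 1 in DKO_A1, and 1 and 2 in DKO_A2. Over all genes, 1.53% were higher and 0.731% lower in WT (2.26% called), 2.65% and 2.09% in Lkb1-/- (4.74%), 0.788% were lower in DKO_A1, and 2.86% were lower in DKO_A2. Leaving out single libraries gave totals of 2 to 4 in WT, 1 to 3 in Lkb1-/-, 0 to 2 in DKO_A1 and 1 to 8 in DKO_A2. With the block within genotype the totals were 9, 18, 13 and 19, and 16.1%, 22.6%, 16.3% and 26% of all genes were called. Smox rose in Lkb1-/- cells (0.95 ± 0.24, FDR 0.0213), DKO_A1 (1.08 ± 0.24, FDR 0.0203) and DKO_A2 (1.05 ± 0.24, FDR 0.00955). Odc1 rose in Lkb1-/- cells (0.78 ± 0.21, FDR 0.0381). In WT cells the spermidine/spermine acetyltransferase Sat1 (0.61 ± 0.11, FDR 0.00258) and the aldose reductase Akr1b3 (0.56 ± 0.10, FDR 0.00187) rose, and Gamt fell (-1.28 ± 0.29, FDR 0.0159). The cGMP-dependent kinase Prkg2 was lower after IL-1β in all 4 genotypes, by -0.41 ± 0.10 in WT (FDR 0.0270), -0.51 ± 0.10 in Lkb1-/- (FDR 0.00277), -0.47 ± 0.10 in DKO_A1 (FDR 0.0116) and -1.12 ± 0.10 in DKO_A2 (FDR 1.87e-07). Some of these calls rested on single libraries or settings. When the model held only the libraries of that comparison, Smox in DKO_A2 (FDR 0.110), Gamt (FDR 0.191) and Prkg2 in WT (FDR 0.0556) were not called, nor were Odc1 in Lkb1-/- (FDR 0.0612) and Prkg2 in WT (FDR 0.0633) with upper quartile scaling. That of Smox was lost in Lkb1-/- cells without untreated replicate 1 or 2 or stimulated replicate 3 (0.77 to 0.90), in DKO_A1 without the libraries of the same numbers (0.92 to 1.09), and in DKO_A2 without untreated replicate 2 or stimulated replicate 3 (0.79 to 0.89). Odc1 was not called without untreated replicate 2 or 3 or stimulated replicate 1 or 3 (0.61 to 0.87), nor Gamt without untreated replicate 2 or 3 or stimulated replicate 1 or 2 (-1.27 to -1.04). Prkg2 was not called without untreated replicate 1 or 3 or stimulated replicate 2 or 3 in WT (-0.45 to -0.35) and in DKO_A1 (-0.45 to -0.40).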

How the data were processed

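The submitters' processing notes and the study's methods name Trim Galore 0.6.0 and STAR 2.7.8a, with alignment to GRCm38 and GENCODE vM24. The authors deposited 1 table of raw read counts per gene and library, with unstranded, first-strand and second-strand columns. Second-strand counts were used: they held 95.5–96.0% of the reads given to genes by strand. Lines that name no gene (26.7–34.4% of each library's total) were left out. The labels and the methods name different library kits, which was not settled. Symbols came from GENCODE M21 of the same build (55230 of 55471 identifiers matched).

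The 5 genes and all gene lists were chosen with earlier results of these data known, and other results of this set are not reported here. Genes were filtered with filterByExpr in edgeR 4.0.16 (minimum count 10, minimum total 15; 17522 genes kept), scaled with TMM and fitted with the legacy quasi-likelihood test, 1 coefficient per group over 24 libraries, after the study's methods, in R 4.3.3. FDR is the Benjamini-Hochberg value over all genes tested, called under 0.05. The difference of the Lkb1-/- and WT responses was planned as a test and is given without one, since the genes were selected on both. SE is the log2 difference divided by the root of F. CPM values are TMM-scaled. Groups at 3 reads or fewer are given as ratios of counts with exact 95% intervals. Intervals and floors cover counting error only.

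All 5 genes are named. Of the other pathway genes, the rule took at most 3 higher and 3 lower per contrast, by size among those called with a mean log2 CPM above 1, of which those in the text are a selection. For likeness, the 3 genes with the highest r were taken.

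Libraries with the same replicate number deviated together: every pair's correlation of deviations from group means was over 0.1 (0.122 to 0.743). The number was therefore also fitted as a block, over all libraries or within each genotype. Other alternatives were unstranded counts, DESeq2 size factors, upper quartile scaling, no filter, at least 10 counts in every library, edgeR's current quasi-likelihood default, the DESeq2 1.42.0 Wald test, fits restricted to the compared groups, and omission of single libraries. These were applied to the other pathway genes after their values were seen.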

Additional observations from a re-analysis of the deposited data

Results flagged for a closer look

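With a block for the replicate number inside each genotype, 5 IL-1β responses differed between a clone and Lkb1-/- cells by a test of the difference itself (FDR under 0.05). DKO_A1 minus Lkb1-/- differed for Slc7a2 (-0.78), Gch1 (-0.76) and Ass1 (-0.45), beside 1.52% of all genes called. DKO_A2 minus Lkb1-/- differed for Gch1 (-0.66) and Ass1 (-0.40), beside 1.04% of all genes called. All values are log2 differences of responses. None of the 5 was called without a block on the filtered genes, and none with the block over all libraries (FDR 0.0644 to 0.675). Without a filter Slc7a2 in DKO_A1 minus Lkb1-/- (-0.79) was called. The genes were selected with the Lkb1-/- response in view, so these differences are not independent of the choice. A choice of genes that rose strongly in Lkb1-/- cells favours negative values, the direction of all 5.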

How the results depend on the processing

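No member's difference between genotypes, and no called response, changed direction under the alternatives run. The response of Asl in Lkb1-/- cells, near 0, ranged from -0.13 to 0.0097 when single libraries were left out, and was positive without untreated replicate 3. The number of the 5 genes called moved by over 1.5 times as follows. At least 10 counts in every library, which leaves fewer of the 5 genes to test, gave 3 (stimulated Lkb1-/- against WT), 2 (either stimulated clone against WT), 2 and 1 (DKO_A2 against DKO_A1 untreated and stimulated) and 1 (IL-1β in either clone). For DKO_A2 against DKO_A1 untreated, the DESeq2 test and the replicate block (46.3% of all genes called) gave 3, and no filter and DESeq2 size factors gave 2. For untreated DKO_A2 against Lkb1-/-, the DESeq2 test, no filter and the block (45.9%) gave 2. For stimulated DKO_A1 against Lkb1-/-, the block (49.1%) gave 5. With unstranded counts, and in the fit of only the groups compared, stimulated DKO_A2 had 1 call against DKO_A1 and 1 against Lkb1-/-. No filter called 1 response difference for DKO_A1 minus Lkb1-/-, and the block within genotype called 3 for it (1.52% of all genes) and 2 for DKO_A2 minus Lkb1-/- (1.04%). Leaving out single libraries gave 1 to 2 calls between stimulated clones, 1 to 2 between untreated clones, and 1 to 2 for stimulated DKO_A2 against Lkb1-/-. Over all genes, IL-1β called 396 genes in WT (DESeq2 621, no filter 954, block 1629, block within genotype 2823, single libraries left out 203 to 412) and 831 in Lkb1-/- cells (no filter 1428, block 2601, block within genotype 3966, single libraries left out 544 to 763). The count was 203 without untreated WT replicate 2 and 544 without untreated Lkb1-/- replicate 2. The replicate block over all libraries changed the calls given with it in the report, among those of the 5 genes. Upper quartile scaling moved the median of all genes from 0.03 to 0.14 for stimulated Lkb1-/- against WT. Alternatives were run for a member's difference only where some fit called it. The causes of these changes were not tested.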
